A study of Danio rerio with 20 samples.

Results

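The features described here are the 200 array features whose signal differed most from fish to fish within every group of a zebrafish testis study. For each of 65942 distinct profiles (75212 features, with identical profiles taken once) the standard deviation (SD) of the log2 signal was taken within each of 4 groups, the smallest of the 4 SDs was kept as the score, and the 200 highest scores were retained. One unit of log2 signal is a doubling. The arrays were Affymetrix whole-transcript arrays hybridised with total RNA labelled as testicular tissue from 20 male AB-strain wild-type zebrafish of 1 year of age. The samples fell into 4 groups of 5. The design text gives 5 males per group and the titles call the samples biological replicates, but no label states that each array holds the RNA of 1 fish; a sample is called a fish below on that reading. The F1 TCDD and F2 TCDD lineages descended from F0 fish held for 1 h in water carrying 50 pg/ml TCDD, the dioxin that activates the aryl hydrocarbon receptor, at 3 and again at 7 weeks post fertilization. The F1 DMSO and F2 DMSO lineages descended from F0 fish given the vehicle DMSO. Exposure is labelled for the F0 fish only. Whether any TCDD reached F1 fish through their F0 parents was not determined. The labels do not tell families, clutches or tanks apart, so every p-value measures only the spread between these samples. Replicate 5 of both F1 groups was not used in choosing the members.

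Of the 113 members with 1 gene symbol, 68 were placed in role groups of the intestine, the liver, the exocrine pancreas or lipoproteins. The share of such genes among all named features was not determined. The intestine breaks down food with enzymes set in the brush border of its lining cells and takes up sugars, amino acids, peptides and fat through transporters in the same membrane. The liver makes most proteins of the blood plasma, among them clotting factors, complement and carriers, and the exocrine pancreas makes digestive enzymes. The testis consists of germ cells, Sertoli cells that support them and Leydig cells that make androgens, and in zebrafish it lies in the body cavity beside the gut, the liver and the scattered pancreas.

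Among the 200 members, 113 (56.5%) had 1 gene symbol, 4 had several and 83 were not listed in the annotation table, against 31.6% with 1 symbol among all distinct profiles. The 113 features stand for 112 genes, since plb1 was present on 2 features. They were sorted by known role after the members had been seen, and the roles of the orthologous mammalian genes were used where none is established in zebrafish. There were 29 plasma proteins of the liver, 23 features for intestinal digestion and absorption, 7 pancreatic digestive enzymes, 5 liver enzymes or export pumps, 4 apolipoproteins and 45 other named features. None of the named members carried a symbol of the MHC, NLR, gimap, histone or zinc finger families. The share of such symbols among all named features was not determined, and members without 1 symbol could not be checked, so this absence is a description only. Pairs of neighbouring genes in the RefSeq gene order were ifit15 with ifit14, cela1.1 with cela1.2, cela1.2 with cela1.3, and slc6a19a.1 with slc6a19a.2. Their sequences were not compared, so whether such neighbours share labelled RNA on an array was not determined.

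One array went against its tissue label and touches every result below. Germ-cell markers (7 of 9 listed genes found, among them ddx4, dazl and piwil1) averaged 6.43 on F1 TCDD replicate 2 and 9.76 to 12.01 on the other 19 arrays. The 4 Sertoli markers averaged 7.38 there against 9.78 to 11.62 elsewhere, although sox9a alone did not follow (8.85 against 7.79 to 10.2). The 4 Leydig markers averaged 6.37 there against 9.71 to 11.84. Its intestine markers (fabp2 and vil1) averaged 12.24, as did those of F2 TCDD replicate 3. Both genes are themselves members, chosen for their spread with this array included, so they are no separate check of its tissue. The exocrine pancreas markers of F1 TCDD replicate 2 (prss1, ela2 and cpa5, 3 of 4 found), which are not members, averaged 13.62, the highest of the 20 arrays. This array gave the highest of the 20 values for 145 of the 200 members. The other 19 arrays carried the testis markers at high levels, and oocyte markers averaged 4.79 to 6.70 over all 20. Single oocyte genes ranged more widely. zp2.1 measured 9.84 in F2 DMSO replicate 3 against 4.17 to 7.16 elsewhere, and zp3b ran from 5.97 to 9.25, highest in F1 DMSO replicate 1. The array medians formed 2 sets, 6.47 to 6.58 on the 8 arrays of F1 replicates 1 to 4 and 6.01 to 6.11 on the remaining 12, which include both F1 replicate 5 arrays.

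The members were chosen by their log2 SDs within groups, so these values are given as a description only. The score ran from 1.47 to 3.51 with a median of 1.78, against a median of 0.145 over all distinct profiles. The 6 highest scores belonged to features 13026604 (3.51), 13026597 (3.51), 13285244 (2.95) and 13281874 (2.89), which have no gene name here, and to apoa4b.2 (2.81) and zgc:153968 (2.73). The last member inside the limit was rnasel3, a ribonuclease, at 1.468, and the first outside was LOC569071 at 1.465. The group with the smallest SD was F1 DMSO for 108 members, F2 DMSO for 52, F2 TCDD for 37 and F1 TCDD for 3. The median member spanned 6.76 log2 units from the lowest to the highest fish (range 4.80 to 10.9), against 1.68 for the median profile of the whole table. Without F1 TCDD replicate 2, 173 of the 200 were chosen again. The list depended more on other fish: 84 were chosen again on leaving out F1 DMSO replicate 3, and 117 on leaving out F2 TCDD replicate 3.

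**Figure D1:**
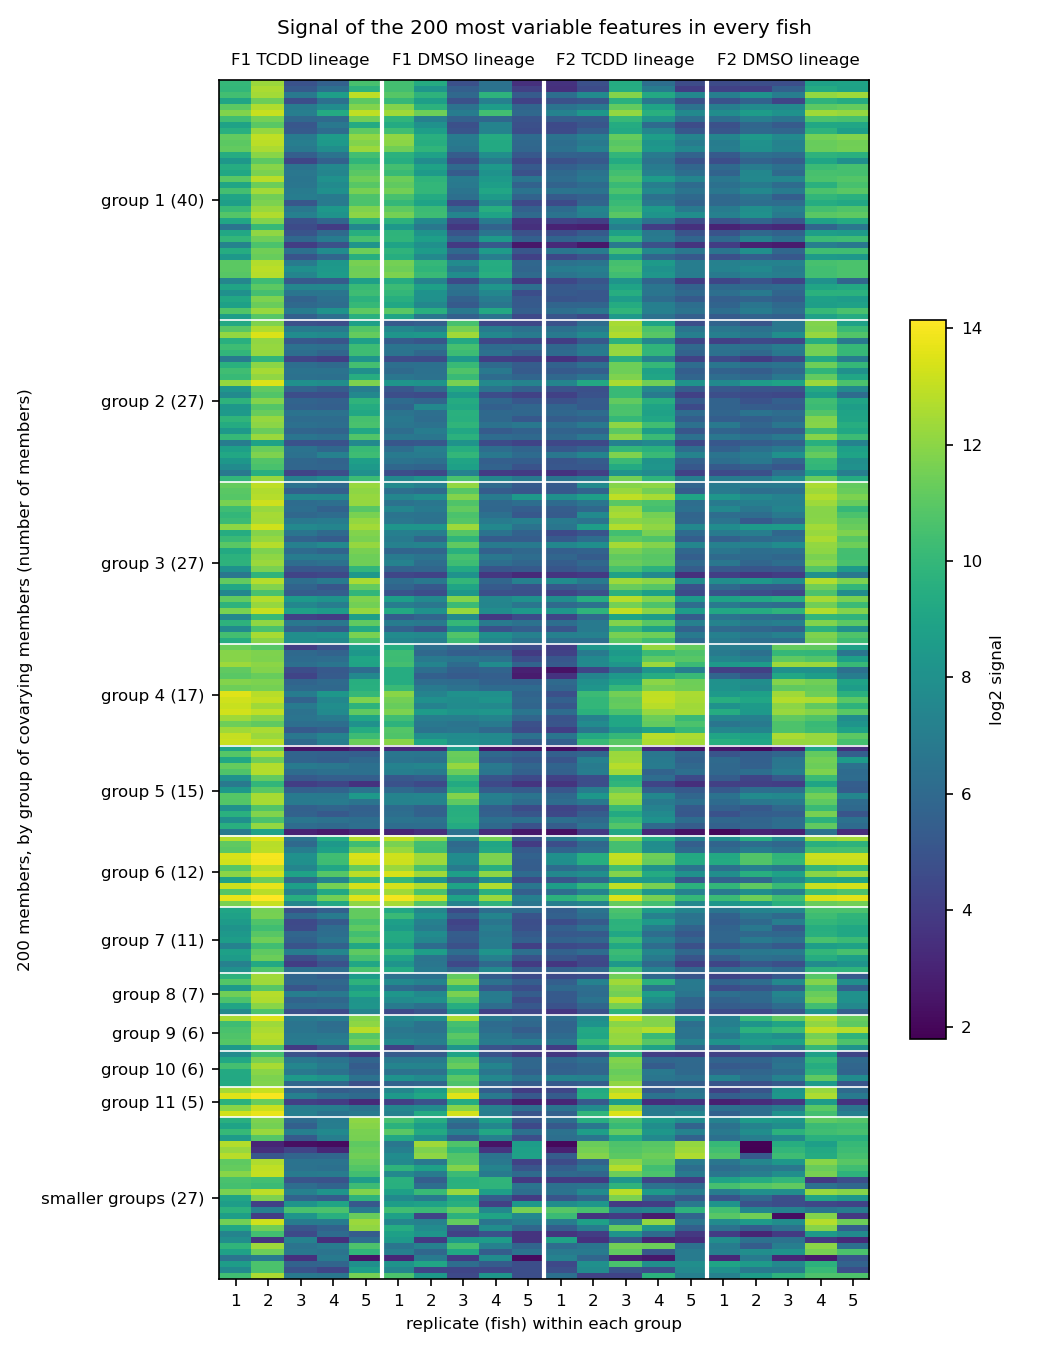
Log2 signal (colour) of the 200 members (rows) in each of the 20 fish (columns, replicates 1 to 5 within each group). Rows are ordered by groups of members that rise and fall in the same fish, with the number of members in parentheses; F1 TCDD replicate 2 is bright in most rows, and high fish occur in all 4 groups.

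Most members fell into separate levels from fish to fish. For 168 of 200 (84%) the sorted values of the 20 fish held a gap of at least 1 log2 unit with at least 3 fish on each side; such a gap was present in 2.5% of all distinct profiles, and a rule that selects by spread favours it. The count was 167 without F1 TCDD replicate 2. The widest gaps were those of apoa4b.2 (5.14), cd36 (4.21), feature 13011984 (4.04), apoea (3.82), slc15a1b (3.66) and feature 13026604 (3.63). Not all members were two-level: cut at every gap of at least 1 log2 unit, the 20 values made 1 level for 18 members, 2 for 93, 3 for 74, 4 for 14 and 5 for 1. The gaps were wider for the 22 separated intestinal features (median 2.60) than for the 18 separated plasma proteins (median 1.24). Both medians were the same without F1 TCDD replicate 2. That array held the highest of the 20 values for 145 of the 200 members. Leaving out a highest value seldom alters a gap with at least 3 fish on each side. The count of 167 and the repeated medians therefore say little about the influence of that array.

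**Figure D2:**
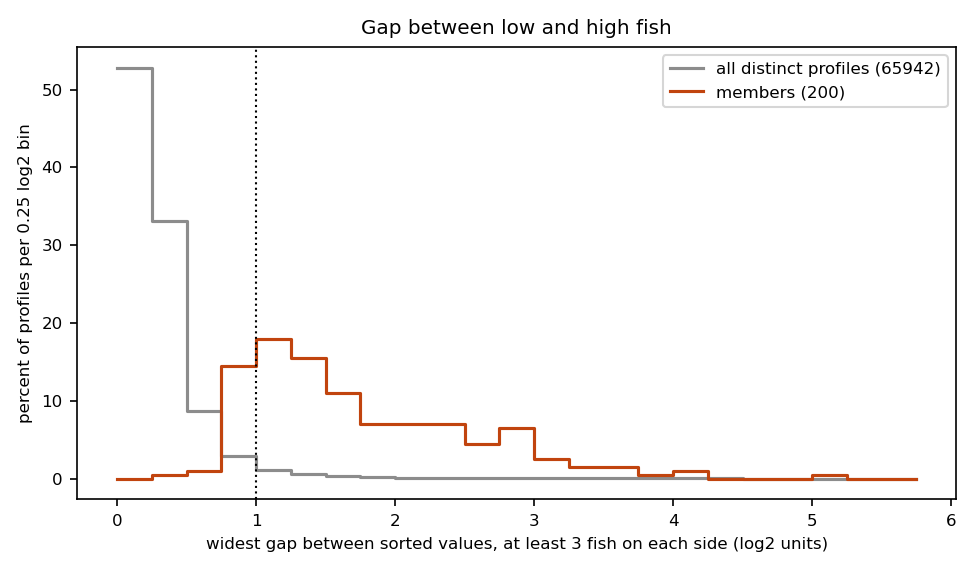
Distribution of the widest gap between neighbouring fish after sorting the 20 values (x axis, log2 units, at least 3 fish on each side), as the percent of profiles per bin (y axis), for the 200 members and for all 65942 distinct profiles. The dotted line is the limit of 1 log2 unit, which 84% of the members and 2.5% of all profiles reached.

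The intestinal features were sharply divided, though less widely than the 3 separated apolipoproteins (median gap 3.82). vil1, which encodes villin, an actin-bundling protein of brush-border microvilli, measured 10.31, 12.16, 6.38, 6.27 and 10.23 in F1 TCDD replicates 1 to 5, and 6.54, 6.52, 10.51, 6.11 and 6.20 in F1 DMSO. In F2 TCDD it measured 5.91, 6.73, 12.09, 9.85 and 5.98, and in F2 DMSO 6.42, 6.39, 6.98, 11.49 and 10.07. No fish lay between 6.98 and 9.85, so 8 fish were high and 12 low: 3 of 5 in F1 TCDD, 1 of 5 in F1 DMSO and 2 of 5 in each F2 group. These 8 fish (F1 TCDD replicates 1, 2 and 5, F1 DMSO replicate 3, F2 TCDD replicates 3 and 4, and F2 DMSO replicates 4 and 5) were exactly the high fish of 51 members, the commonest pattern. Among the 51 was anpepb.1, an aminopeptidase N of the brush border, at 11.15 or more in these 8 fish and 7.72 or less in the others. The same held for si, the sucrase-isomaltase that splits disaccharides, whose gap lay between 8.69 and 11.31.

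A second intestinal pattern set 3 of those 8 fish apart. slc15a1b, which encodes the di- and tripeptide transporter PEPT1, measured 10.75, 12.72, 6.15, 6.32 and 6.36 in F1 TCDD, 7.09, 6.94, 11.37, 6.63 and 5.60 in F1 DMSO, 5.64, 7.00, 12.44, 5.70 and 6.27 in F2 TCDD and 5.97, 6.24, 7.00, 11.73 and 6.08 in F2 DMSO. F1 TCDD replicate 5, F2 TCDD replicate 4 and F2 DMSO replicate 5, which were high for vil1 and anpepb.1, were thus among the low fish for slc15a1b. The 5 remaining fish made up the high side of 21 members. One was cd36, a fatty acid translocase and scavenger receptor, whose high fish stood at 10.89 to 12.61 and whose low fish stood at 5.05 to 6.69. fabp2, the intestinal fatty acid-binding protein, lay between the patterns: F1 TCDD replicate 5 and F2 TCDD replicate 4 were high at 9.79 and 9.62, and F2 DMSO replicate 5 was low at 7.89. Some intestinal features differed from the pattern of 8 high fish in 1 fish. cdh17, a cadherin of the intestinal lining, was also high in F2 TCDD replicate 2. slc6a19b, a neutral amino acid transporter of the brush border, measured 7.04 in F2 TCDD replicate 3, where its relatives slc6a19a.1 and slc6a19a.2 were on the high side, and 11.16 to 13.23 in its 7 high fish.

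Apolipoproteins followed different patterns from one another. apoa4b.2, a lipoprotein component of fat-absorbing cells, measured 8.97, 11.14, 2.47, 2.54 and 3.00 in F1 TCDD, 3.23, 3.29, 8.60, 2.52 and 2.39 in F1 DMSO, 2.25, 3.03, 11.09, 3.13 and 2.43 in F2 TCDD and 2.56, 2.02, 2.86, 8.99 and 3.46 in F2 DMSO. Its 5 high fish were those of slc15a1b, and no fish lay between 3.46 and 8.60. apoea, an apolipoprotein E gene, had the same 5 high fish at 11.24 to 12.74. apoa1a, the main protein of high-density lipoprotein, was high in 7 fish, and apoa2 had no gap of 1 log2 unit and joined the plasma proteins of the liver described next.

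Plasma proteins of the liver were high in many, but not all, of the same fish as the intestinal features. fgb, the fibrinogen beta chain from which clots form, measured 10.90, 12.78, 7.39, 9.11 and 11.23 in F1 TCDD and 12.30, 10.54, 6.88, 9.52 and 5.44 in F1 DMSO. In F2 TCDD it measured 6.15, 6.64, 10.38, 8.11 and 6.49, and in F2 DMSO 6.31, 7.16, 6.70, 9.93 and 10.09. F1 DMSO replicate 1, low for vil1, held the second highest fgb value, and F1 DMSO replicate 3, high for vil1, was among the low fish for fgb. The separation of fgb was just at the limit, between 8.11 and 9.11. c3a.2, a complement C3 gene, spanned 9.04 log2 units, from 3.52 in F2 TCDD replicate 1 to 12.55 in F1 TCDD replicate 2. The group-1 members in the heat map included c3a.2 and ahsg2, a fetuin-type plasma glycoprotein, beside the unnamed feature 13300254, the 3 highest-scoring of its 40 members. Averaged over the 29 plasma proteins, the fish above 9.5 were F1 TCDD replicates 1, 2 and 5 (9.51, 11.73 and 10.65), F1 DMSO replicate 1 (10.23), F2 TCDD replicate 3 (9.91) and F2 DMSO replicates 4 and 5 (9.85 and 9.75). The lowest was F1 DMSO replicate 5 at 5.24.

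Liver enzymes moved with the plasma proteins. hpda, an enzyme of tyrosine breakdown, spanned 8.35 log2 units, with F1 TCDD at 12.74, 13.44, 6.54, 9.41 and 12.73, F1 DMSO at 12.98, 12.05, 7.60, 11.55 and 5.09, F2 TCDD at 6.62, 7.53, 12.01, 9.38 and 7.25, and F2 DMSO at 7.63, 9.45, 7.64, 12.22 and 12.42. Its 9 high fish were also those of serpinc1 (antithrombin, which restrains clotting), tdo2a (a tryptophan-degrading enzyme) and bfb (a complement factor B gene). The remaining 3 liver enzymes or pumps were uox (urate oxidase), abcc2 (an export pump of the bile-side membrane) and tat (tyrosine aminotransferase), of which only uox had a gap of 1 log2 unit. The fixed liver list could be checked on 2 of 6 genes: fgb is itself a member, and vtg2, a yolk protein gene that males express little, stood at 4.02 to 6.49.

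Pancreatic enzymes were high in fish that only partly matched those of the intestine and liver, and the number of high fish varied by member. The high side held 3 fish for sycn.2, 5 for amy2al2, 7 for cela1.1 and pla2g1b and 14 for cpa1. The members cela1.2 and cela1.3 had no gap of 1 log2 unit. cela1.1, an elastase, measured 11.87, 11.75, 5.99, 5.73 and 8.31 in F1 TCDD, 10.30, 5.96, 5.50, 5.73 and 3.94 in F1 DMSO, 4.18, 6.82, 8.41, 10.22 and 10.70 in F2 TCDD and 6.87, 6.35, 10.00, 9.96 and 6.59 in F2 DMSO. F2 TCDD replicate 5 and F2 DMSO replicate 3 were high for cela1.1 and low for both vil1 and fgb. All 7 pancreatic members (cela1.1, cela1.2, cela1.3, the phospholipase pla2g1b, the amylase amy2al2, the carboxypeptidase cpa1 and the secretory granule protein sycn.2) fell into 1 covarying group of 17, together with dnase1 and endou. The pancreas markers prss1, ela2 and cpa5 ranked 959, 543 and 1460 by score and so were not members. Their mean nevertheless ran from 6.97 to 13.4 on the 19 arrays other than F1 TCDD replicate 2, and it stayed between 11.5 and 13.2 in F2 DMSO.

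**Figure D3:**
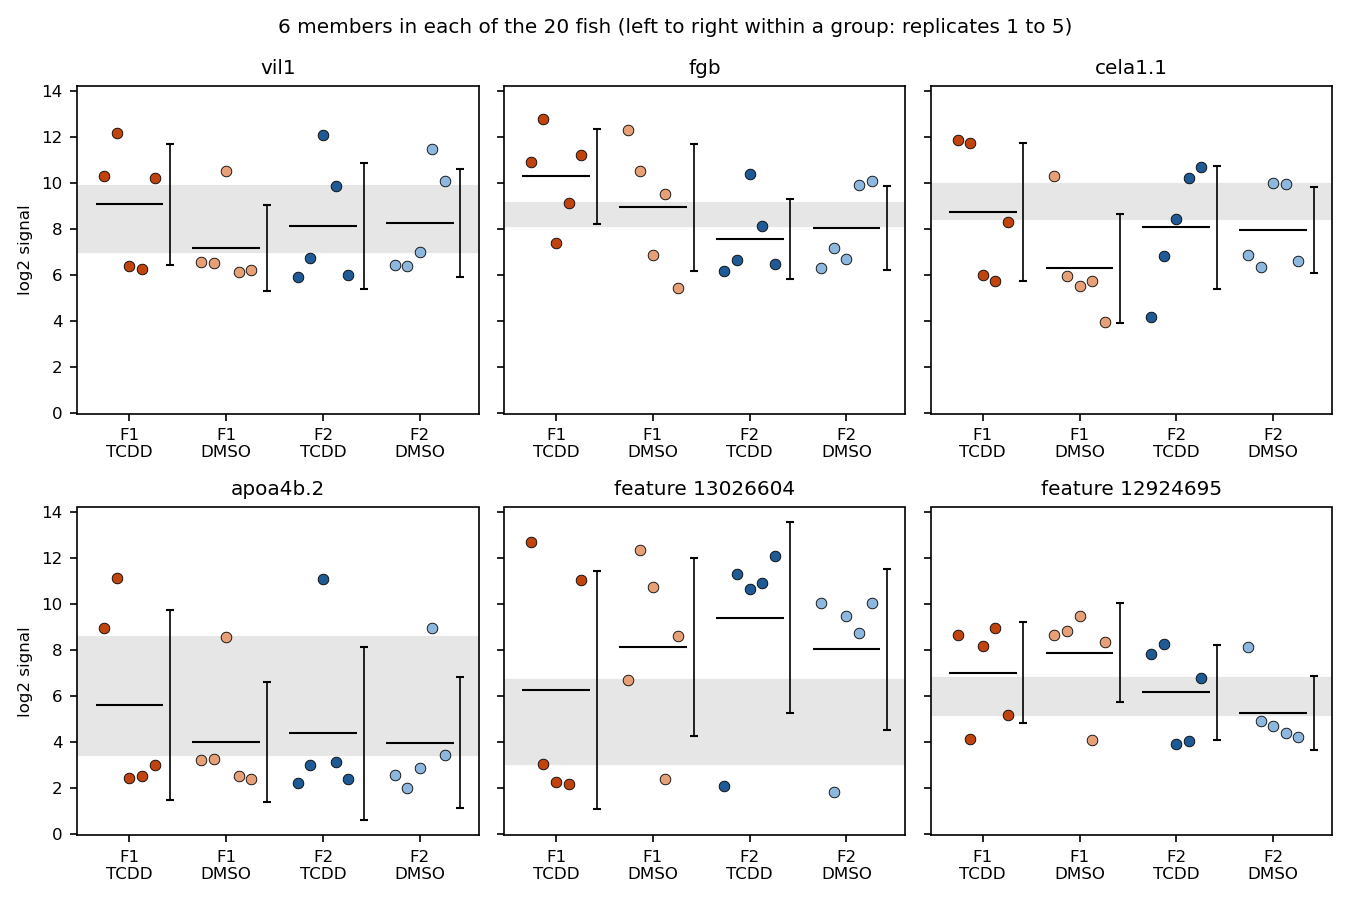
Log2 signal of 6 members in each fish, 5 points per group from replicate 1 (left) to replicate 5 (right), with the group mean (line) and SD (bar at the right of each group, n = 5). The grey band is the gap between low and high fish; high and low fish occur in each group for all 6, and the high fish differ between vil1, fgb, cela1.1 and the unnamed features.

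Plasma proteins, pancreatic enzymes and intestinal features each covaried across fish. After each group's mean was subtracted, the median Pearson correlation over the 20 arrays was 0.953 among the 29 plasma proteins, 0.965 among the 7 pancreatic enzymes and 0.916 among the 23 intestinal features. Between roles it was 0.640 for intestine with plasma proteins, 0.621 for pancreas with plasma proteins and 0.519 for intestine with pancreas, whereas liver enzymes and plasma proteins correlated at 0.946. The 4 apolipoproteins had a median of 0.765 among themselves and 0.794 with the intestinal features. Without F1 TCDD replicate 2 the medians were 0.951, 0.965 and 0.903 within the plasma, pancreatic and intestinal roles and 0.591, 0.568 and 0.448 between them, in the order given above. All pairs of members had a median of 0.668. The lowest single correlations were 0.470 among the plasma proteins, 0.919 among the pancreatic enzymes and 0.407 among the intestinal features. These are descriptions over 20 points that share their arrays, and the rule used the same deviations. Joined at a correlation of at least 0.9, 189 members fell into 17 groups, and 11 stood alone; without F1 TCDD replicate 2 the first number was 188. The 2 largest groups after the liver group held 27 members each. Group 2 in the heat map was led by zgc:153968 and features 12980488 and 13281214. It also held mbl2, sorted by role with the plasma proteins, beside the intestinal features vil1 and slc5a1.

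Testis markers were low on some of the arrays where the intestinal members were high, but not on all. The intestinal features averaged 11.7 in F2 TCDD replicate 3 and 11.7 in F2 DMSO replicate 4. There germ-cell markers averaged 9.76 and 10.02, the lowest of their groups. In F1 DMSO replicate 3 the intestinal mean was 10.9 with a germ-cell mean of 11.78. These 2 means were 10.6 with 11.26, 12.5 with 6.43 and 10.1 with 10.39 in F1 TCDD replicates 1, 2 and 5. They were 9.78 with 10.51 in F2 TCDD replicate 4 and 9.31 with 10.85 in F2 DMSO replicate 5. F1 DMSO replicate 3 and F1 TCDD replicates 1 and 2 are of the array set with higher medians, the others of the lower. The part of the array set in these levels was not tested. The germ-cell range within groups was 6.43 to 11.96 in F1 TCDD (10.39 to 11.96 without replicate 2), 11.45 to 12.01 in F1 DMSO, 9.76 to 11.57 in F2 TCDD and 10.02 to 11.33 in F2 DMSO. The mean of the skeletal muscle markers ranged from 5.62 to 10.2 and that of the immune markers from 6.86 to 9.80 over the 20 arrays. The part of these other tissues in the members' spread was not tested. In such bulk samples, fewer cells of a type and less RNA per cell cannot be told apart. Of the 6 listed markers of aryl hydrocarbon receptor activity, cyp1a and cyp1c1 were not found and could not be checked. The mean of the 4 found ranged from 6.61 to 7.53, and none of the 4 was a member. Among them ahrrb varied more than this mean, from 5.71 in F2 DMSO replicate 4 to 8.64 in F1 DMSO replicate 4.

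**Figure D4:**
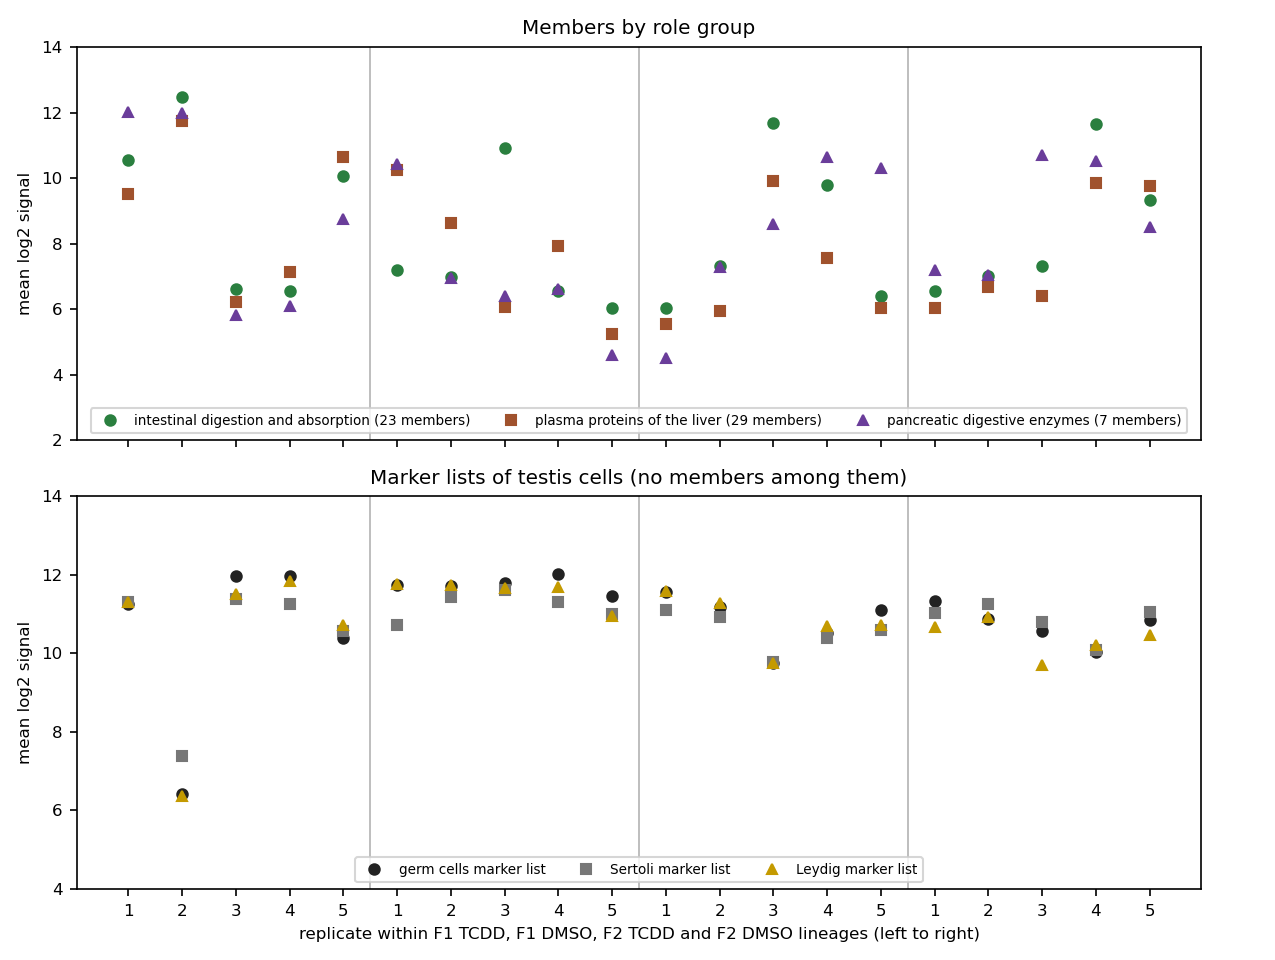
Mean log2 signal per fish of the intestinal, liver plasma and pancreatic members (upper panel) and of the germ-cell, Sertoli and Leydig marker lists (lower panel), with groups separated by vertical lines. F1 TCDD replicate 2 has the lowest testis marker means (6.43, 7.38 and 6.37). All 3 member groups are high in F1 TCDD replicates 1 and 2 and F2 DMSO replicate 4. All 3 are low in some fish, such as F1 TCDD replicate 3, F1 DMSO replicate 5 and F2 TCDD replicate 1. In other fish they differ, as in F1 DMSO replicate 3.

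Some unnamed members had their low and high sides in other sets of fish than the organ patterns. Feature 13026604, the highest score, measured 12.74, 3.06, 2.29, 2.20 and 11.05 in F1 TCDD, 6.69, 12.39, 10.75, 2.41 and 8.61 in F1 DMSO, 2.08, 11.33, 10.67, 10.93 and 12.13 in F2 TCDD and 10.05, 1.84, 9.49, 8.75 and 10.06 in F2 DMSO. Its value of 6.69, in F1 DMSO replicate 1, lay between the low fish and the other high ones. The feature was low in 6 fish, and features 13026597 and 13026599, whose identifiers lie within 10 of it, were low in the same 6. F1 TCDD replicate 2, the highest array for most members, was one of those low fish. Features 12924695 and 13278958 formed a pair with 11 high fish, 3 of 5 in F1 TCDD, 4 of 5 in F1 DMSO, 3 of 5 in F2 TCDD and 1 of 5 in F2 DMSO. Features 13259147 and 13288188 formed another pair with 10 high fish and gaps of 2.78 and 3.04. Feature 12969743 had its low side at 3.87 or less and its high side at 5.09 or more, and its closest correlation with any other member was 0.136. Features 13282534 and 13281240 also stood alone, with 12 and 11 high fish. Several of these features were chosen for naming after their values had been seen, as were the genes outside the naming rule above.

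The 2 arrays that the rule did not use differed in the same features. F1 TCDD replicate 5 and F1 DMSO replicate 5 were at least 1 log2 unit apart for 179 of 200 members, against 17.2% of all distinct profiles. F1 TCDD replicate 5 was the higher one for 177 of these and F1 DMSO replicate 5 for 2. The median absolute difference was 4.76 log2 units over members and 0.407 over all profiles. All 29 plasma proteins (median 5.53), all 5 liver enzymes (5.32) and all 7 pancreatic enzymes (4.33) were at least 1 log2 unit higher in F1 TCDD replicate 5, as were 19 of the 23 intestinal features (4.91). slc15a1b differed by less, at 6.36 and 5.60. F1 DMSO replicate 5 was the lowest of its group for 161 of the 200 members, and members share their high and low fish. The 179 differences are therefore not independent, and with 1 fish per group this pair allows no test.

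No member passed the test of a lineage difference in any of the 4 contrasts. The fit was limma over all 75212 features with 1 mean per group, and p-values were adjusted over all features by the Benjamini-Hochberg method. In F1, 0 of 200 members passed an adjusted p of 0.05 (0% of all features did), 0 had an unadjusted p under 0.05 (7.13% of all features did), and the smallest adjusted p was 0.583. In F2, 0 members passed (0.0957% of all features), 1 had an unadjusted p under 0.05 (4.1% of all features), and the smallest adjusted p was 1.00. The number of members whose 5 TCDD fish did not overlap the 5 DMSO fish was 0 in F1 (0.856% of all features) and 0 in F2 (1.3%). The median standard error of the members was 1.32 log2 units against 0.251 over all features. The rule chose members for a large spread within groups, and the test sets each difference against that same spread. A call and groups without overlap were thereby made unlikely in advance, so the counts of 0 say little about lineage. Leaving out 1 fish at a time left the number that passed at 0 in both generations, while the F1 count at an unadjusted p under 0.05 became 23 when F1 TCDD replicate 3 was left out and 15 when replicate 4 of that group was. It became 10 on leaving out F1 DMSO replicate 1, and 18 on leaving out replicate 3 of the same controls. The share of all features at that limit was not determined for these fits. Members share their high fish, so these counts are not independent and are not read as a lineage effect.

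The differences that did not pass had a common sign in F1. The TCDD minus DMSO difference was above 0 for 194 members and below 0 for 6, with a median of 1.55 (range -1.90 to 2.76). Since members of one role share their high fish, these 194 signs restate the count of high fish and are not independent. The median was 0.84, with 176 members above 0, without F1 TCDD replicate 2, and it was -0.27 with array weights, which give arrays with larger residuals less influence. Other fish also moved the median, to 1.06 without F1 DMSO replicate 5 and 2.31 without F1 TCDD replicate 3. It was 0.86, with 183 members above 0, without both F1 replicate 5 arrays. By role, the F1 medians were 2.02 for the intestinal features, 1.40 for the plasma proteins and 1.83 for the pancreatic enzymes, and without F1 TCDD replicate 2 they were 1.31, 0.75 and 1.07. vil1 averaged 9.07 ± 2.62 (SD, n = 5) in F1 TCDD and 7.18 ± 1.87 in F1 DMSO, a difference of 1.89 with a 95% interval of -1.03 to 4.82. fgb differed by 1.35 (-1.24 to 3.94) and cela1.1 by 2.44 (-0.59 to 5.47). Without F1 TCDD replicate 2 the differences were 1.12 for vil1, 0.72 for fgb and 1.69 for cela1.1. The smallest p-values of F1 belonged to features 13287232 and 13277734 on the higher side (2.19 and 2.74; limma adjusted p = 0.583 for both) and features 13278958 and 13026604 on the lower side (-1.16 and -1.90; limma adjusted p = 0.640 and 0.750). Without F1 TCDD replicate 2 these 4 differences were 1.34, 2.03, -0.71 and -1.10.

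In F2 the signs were mixed. The difference was above 0 for 61 members and below 0 for 139, with a median of -0.33 (range -3.08 to 1.43), and its sign depended on single fish: the median was 0.21 without F2 TCDD replicate 1, 0.32 without F2 DMSO replicate 4 and -1.14 without F2 TCDD replicate 3. With array weights it was -0.61. By role, 28 of 29 plasma proteins were below 0 (median -0.79), as were 14 of 23 intestinal features (median -0.15) and 5 of 7 pancreatic enzymes (median -0.38). Members of one role share their high fish, so these counts restate the high fish and are not independent. For the mean of the 29 plasma proteins, the highest F2 fish were F2 TCDD replicate 3 (9.91) and F2 DMSO replicates 4 and 5 (9.85 and 9.75). vil1 averaged 8.11 ± 2.74 (SD, n = 5) in F2 TCDD and 8.27 ± 2.36 in F2 DMSO, a difference of -0.16 (-3.09 to 2.77). fgb differed by -0.48 (-3.07 to 2.11) and cela1.1 by 0.11 (-2.92 to 3.14). The 1 member with an unadjusted p under 0.05 was feature 13296760, at 6.32, 4.20, 4.26, 9.67 and 7.18 in F2 TCDD and 7.22, 8.63, 9.78, 10.66 and 10.71 in F2 DMSO. It differed by -3.08 (-5.88 to -0.27; limma unadjusted p = 0.0331, adjusted p = 1.00), and the 2 groups overlapped. The other F2 features with the smallest p were 13259147 on the lower side (-2.47) and 13278958 and clca1, a secreted protein of mucus-producing tissues in mammals, on the higher side (1.37 for the former, and a 95% interval of -1.62 to 4.02 for clca1).

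The change of the lineage difference between generations was tested as an interaction, F2 difference minus F1 difference. Again 0 of 200 members passed (0% of all features), and 3 had an unadjusted p under 0.05 (6.1% of all features). The 2 with the smallest p were features 13296760 (-5.38, limma adjusted p = 0.730) and 13297488 (-3.60), and those with the smallest p on the positive side were 13278958 (2.53) and 12924695 (1.75). The median interaction was -2.01, -1.32 without F1 TCDD replicate 2, and -0.39 with array weights. For the mean of the F1 and F2 differences, 0 members passed (0.0306% of all features), 0 had an unadjusted p under 0.05 (3.88%), and the median was 0.55, or 0.17 without F1 TCDD replicate 2 and -0.44 with array weights. Its smallest p-values belonged to feature 13305442 (1.42) and clca1 (95% interval -0.69 to 3.29) on the higher side and to features 13259147 and 13288188 (-1.13 and -0.84).

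**Figure D5:**
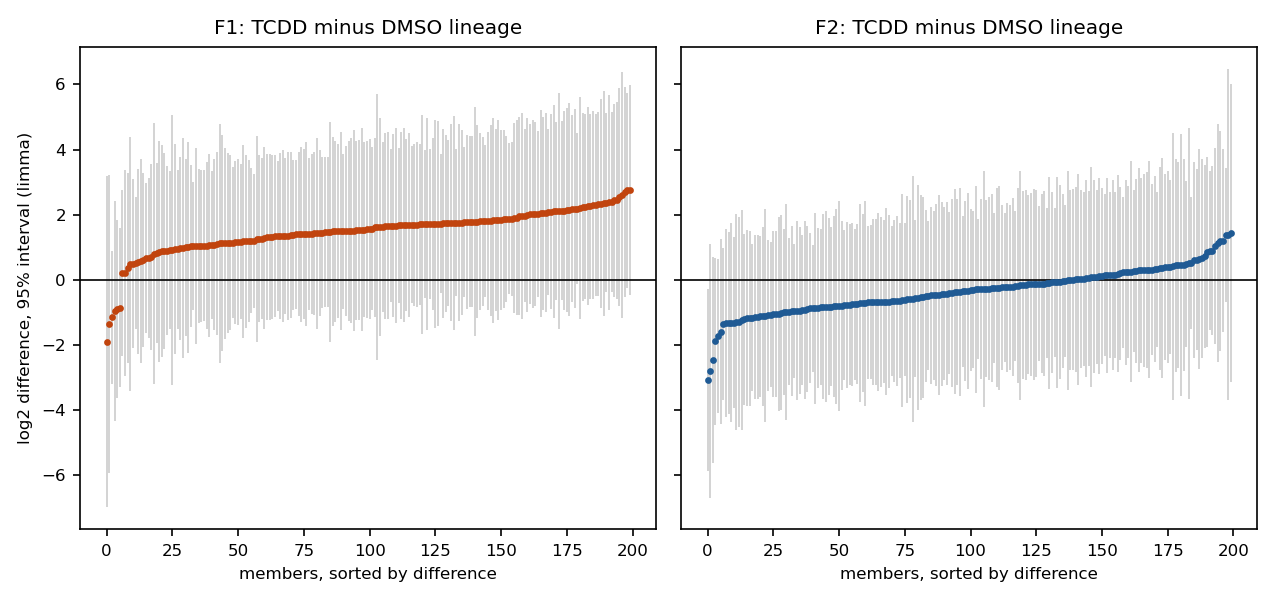
TCDD minus DMSO lineage difference in log2 signal (points) with its 95% interval from limma (grey lines) for each of the 200 members, sorted by size, in F1 (left) and F2 (right). In F1 194 members lie above 0 and in F2 61 do; every interval spans 0 except that of feature 13296760 in F2, and none passed the adjusted p of 0.05.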

How the data were processed

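The authors' deposited table held log2 signals of 75212 features on 20 arrays, from 1.17 to 14.3. Per the submitters' processing notes the software was Affymetrix Expression Console. How it summarised and normalized the probes, and its version, are not given in the sources used here. Values were taken as deposited, and no 2 arrays were identical. Groups and replicate numbers came from the sample titles. Features were named through the platform annotation, updated by Entrez identifier in the RefSeq GRCz12tu table; 20856 features had 1 symbol, 805 had several, and the rest are unnamed here, not without a gene. The members and lists were chosen with earlier results of these data known, and the role groups were written after the members had been seen.

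Lineage differences were tested by fitting 4 group means in limma 3.58.1 (R 4.3.3; eBayes without trend, all 75212 features, two-sided, Benjamini-Hochberg over all features, threshold 0.05). Spread, gaps (at least 1 log2 unit, at least 3 arrays on each side), covariation (complete linkage at a Pearson correlation of 0.9 on group-centred values) and the held-out pair are descriptions with no test, computed in Python 3.11.15 with pandas 2.3.3. The limma step was tested on simulated data. Members named by rule were the 6 highest scores, the features on either side of the limit, the 6 widest gaps, the 2 higher and 2 lower members with the smallest p in each contrast, the 3 highest-scoring members of the 2 largest covarying groups, and members on a marker list; others were chosen after their values were seen. The number of arrays limits the precision. Alternatives were other scalings, array weights, blocks for replicate number and array set, a filter on dim features, other rules for the members, and leaving out each array. Same-numbered arrays of different groups correlated from -0.60 to 0.55 in their deviations from the group means (10 of 30 pairs over 0.1). These correlations cannot settle whether the numbers pair the fish, and the labels do not say so. The main fit therefore used no block.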

Additional observations from a re-analysis of the deposited data

Results flagged for a closer look

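In a group of 5 arrays, a value was singled out when its gap to the nearest other value exceeded 0.71 of the group's range (Dixon's 95% limit). Over 46 features, role means and marker lists, 184 groups were examined and 39 values were singled out. Chance singles out about 1 group in 20, but most of the features were picked for their spread, several also for a wide gap or a small p, and they share fish. The number is therefore a description, and no excess over chance can be read from it.

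Some fish were high in several members. F1 DMSO replicate 3 stood above its group for apoa4b.2 (8.60), zgc:153968 (10.5), cd36 (11.3), feature 13011984 (10.9), apoea (12.2), slc15a1b (11.4), clca1 (9.86), feature 12980488 (11.5), feature 13281214 (12.4), vil1 (10.5), the mean of the intestinal members (10.9) and the intestine marker list (11.1). The intestine marker list holds only fabp2 and vil1, which are also among the intestinal members, so these entries overlap. F2 TCDD replicate 3 stood above its group for apoa4b.2 (11.1), cd36 (12.3), apoea (12.7), slc15a1b (12.4), clca1 (11.8), features 13259147 (8.24) and 13288188 (9.80) and the mean of the apolipoproteins (11.8). F2 DMSO replicate 4 stood above its group for apoa4b.2 (8.99), cd36 (11.2), apoea (11.4), slc15a1b (11.7) and clca1 (10.6).

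The unnamed members with levels of their own gave further values. Feature 13026604 stood below its group at 2.08 in F2 TCDD replicate 1 and at 1.84 in replicate 2 of F2 DMSO, and feature 13026597 was low in the same fish (2.93 and 1.78). F2 DMSO replicate 1 stood above its group for features 13278958 (10.4) and 12924695 (8.14), F1 DMSO replicate 4 stood below for feature 12924695 (4.12), and F1 DMSO replicate 1 stood above for feature 13287232 (7.45).

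Among the marker lists, F1 TCDD replicate 2 stood below its group for germ cells (6.43), Sertoli cells (7.38) and Leydig cells (6.37). The Leydig list was low within its group in F1 DMSO replicate 5 (10.9). Over the arrays other than F1 TCDD replicate 2, the median of that list was also 10.9. The exocrine pancreas list was low in F2 TCDD replicate 1 (6.97). The aryl hydrocarbon receptor targets were high within their group in F2 TCDD replicate 2 (7.32), but their highest means were 7.53 in F1 TCDD and 7.48 in F1 DMSO. The number of members chosen, separated and covarying, the role correlations and the F1 differences are given above with and without F1 TCDD replicate 2; the patterns of single members by fish include it.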

How the results depend on the processing

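The number of members that passed a lineage test was 0 in all 4 contrasts under each of the 116 recalculations: median centring, quantile normalization, trend and robust fits, array weights, each profile once, a filter on dim features, array set as a block, both F1 replicate 5 arrays left out, and each array left out (0 to 0). With the replicate block it was likewise 0, with smallest adjusted p-values of 0.582 in F1, 1.00 in F2, 0.716 for the interaction and 0.922 for the mean (limma). Since the rule made a pass unlikely in advance, these counts of 0 again say little about lineage. Among all features fitted, the number that passed ran from 0 to 7 in F1 and from 31 to 504 in F2. It ran from 0 to 52 for the interaction and from 13 to 123 for the mean, and each was highest with array weights. Of 464 recalculations for named members, 463 kept the sign and the side of the threshold. Feature 13278958 in F1 changed from -1.16 to 0.32 with array weights, and the cause was not tested. In F1 and F2, the trend and robust fits, each profile once and both blocks left the median difference over members unchanged. Leaving out an array of the other generation did so too. No named member passed in the main fit, so the side of the threshold was also unlikely to change. The 463 is therefore no measure of stability. The number of separated members was 199 at a gap of 0.5 and 65 at a gap of 2 log2 units, and 167 to 182 when each array was left out. The list itself depended more on its rule: 115 members were also chosen by the second smallest of the 4 SDs, and 59 by the smallest of the 4 median absolute deviations. Leaving out 1 array kept 84 to 198 members, 84 being the number when F1 DMSO replicate 3 was dropped and 117 that when F2 TCDD replicate 3 was. Members in covarying groups numbered 187 to 191 when each array was left out. The median held-out difference was 4.72 after median centring and 4.74 after quantile normalization. Log2 signals carry no counts, so depth is not a limit that can be stated, and near the bottom of the scale no background level was at hand to say whether a low fish had any signal.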
